A study of Oryzias latipes with 10 samples.

Results

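Bone morphogenetic protein (BMP) signaling in stage 16 medaka embryos was followed through 5 genes, the ligands *bmp2b*, *bmp4* and *bmp16*, the extracellular antagonist *chrd* and the inhibitory Smad *smad6b*. They were found in the gene counts by the Ensembl identifiers that the study's tables pair with these symbols, and are 5 of 24365 genes counted. All 5 had a mean of at least 10 counts per library and were among the 16513 genes tested. Counts came from RNA-seq of whole embryos in 3 libraries of *yap* single mutants (yap-/-), 3 libraries of *yap* double mutants (yap-/- yap1b-/-) and 4 WT libraries. Every embryo was at stage 16 and raised in the same medium at the same temperature, and no treatment is given for any. The mutant strains carry germline deletions in every cell, so that no tissue-specific driver is involved. These are yap1Δ7pb in both mutants and yap1bΔ136pb of its paralog in the double mutants. The study names iCab as its wild-type strain. Embryos were genotyped one by one and their RNA was merged by genotype, and a library is therefore a pool of several embryos, so that error bars and p-values describe the spread between pools.

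BMP ligands are secreted dimers that bind type 1 and type 2 receptor kinases, which phosphorylate receptor-regulated Smads that then act on transcription with Smad4. In the vertebrate gastrula their activity is high ventrally, where it promotes epidermis over neural plate, and low dorsally, where Chordin and other antagonists from the organizer bind the ligands outside the cell. Inhibitory Smads such as Smad6 and Smad7 are themselves induced by BMP or TGF-beta signals and dampen the response inside the cell.

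Gene counts summed to 22053738 to 37776961 in the single mutants, 29521935 to 30627401 in the double mutants and 28978596 to 38383959 in WT. The libraries fall into sets that no label gives and that were read from the expression values of the study's source data, with the single mutants beside WT 1–3 and the double mutants beside WT 4. Reported fold changes come from a model of genotype and set, so that the single mutants were measured against WT 1–3 and the double mutants against a lone library, WT 4, whose spread was taken from the others. WT 4 stood apart from WT 1–3 (Pearson's r of log2 CPM, counts scaled to library size, 0.951 to 0.952, across genes, against 0.989 to 0.990 among WT 1–3), and its values are given separately throughout. The mutated gene *yap1* averaged 2769 ± 194 normalized counts in the single mutants and 3071 ± 331 in the double mutants, against 9173 ± 169 in WT 1–3 (SD, n = 3 each) and 5470 in WT 4. *yap1b* averaged 2167 ± 271 in the single mutants and 896 ± 54.9 in the double mutants, against 2373 ± 90.3 in WT 1–3 (SD, n = 3 each) and 2704 in WT 4. At the whole-embryo level, the later muscle gene *myod1* had 0 to 4 counts per library, while markers of every germ layer were present.

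*bmp4* was lowered in both mutants, to a mean of 2061 ± 104 normalized counts in single mutants and 2205 ± 175 in double mutants, against 4267 ± 284 in WT 1–3 (SD, n = 3 each) and 4857 in WT 4. This ligand is a main ventralizing signal of the vertebrate gastrula. The gene, ENSORLG00000013304, lies on chromosome 22 of ASM223467v1 (7806510 to 7814642 in RefSeq). It had 1941, 2123 and 2119 normalized counts in the 3 single mutant libraries and 2008, 2268 and 2340 in the 3 double mutant libraries, against 4529, 4307, 3965 and 4857 in WT 1 to 4. Normalized counts are counts scaled to a common library size with edgeR's TMM factors. The highest mutant library held less *bmp4* than the lowest WT library, and the groups did not overlap. The mean of the single mutants was 0.483 times that of WT 1–3, and the mean of the double mutants 0.454 times WT 4 and 0.517 times WT 1–3. On the log2 scale *bmp4* fell by 1.05 in the single mutants (SE 0.11, adjusted p = 0.0036) and by 1.14 in the double mutants (SE 0.14, adjusted p = 0.0052). These and all later adjusted p-values come from quasi-likelihood tests in edgeR, corrected after Benjamini and Hochberg over all 16513 genes. In whole embryos, a loss of cells that express the gene and less RNA per cell cannot be told apart.

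**Figure D1:**
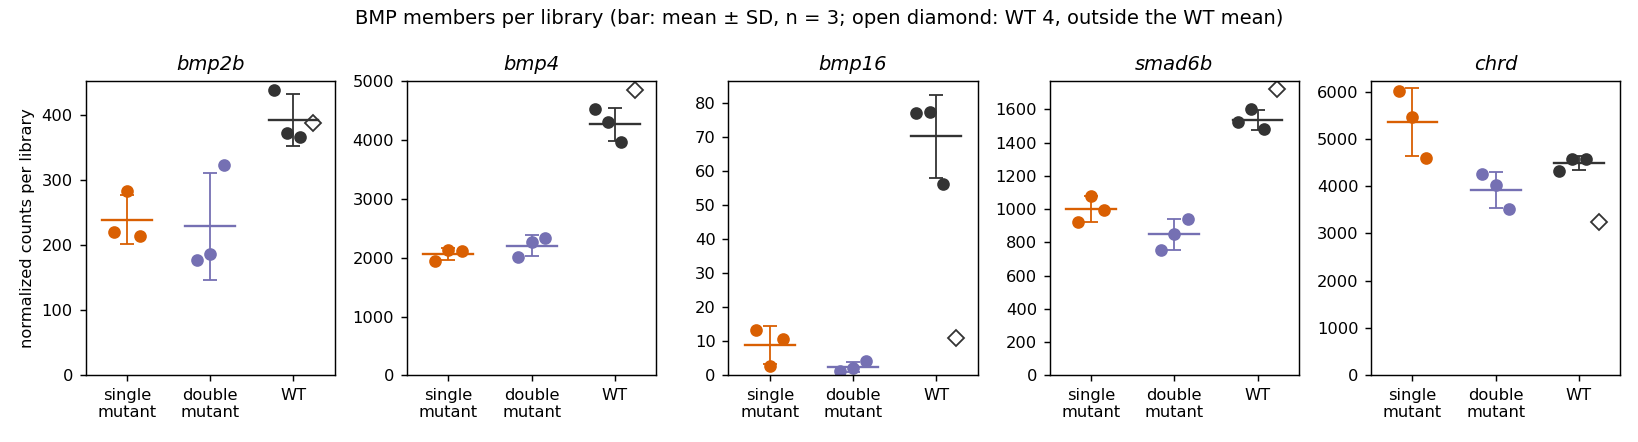
Normalized counts (vertical axis, from 0) of the 5 BMP genes in each library of the *yap* single mutants, the *yap* double mutants and WT (horizontal axis). Filled points are libraries, lines and bars are the mean ± SD of 3 libraries (WT 1–3 for WT), and the open diamond is WT 4; all mutant libraries of *bmp2b*, *bmp4* and *smad6b* lie below the 4 WT libraries, whereas WT 4 lies near the mutants for *bmp16* and below them for *chrd*.

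A ligand of the same ancient class, *bmp2b*, lay lower in every mutant library too, but with a wider spread. Its zebrafish counterpart is required for ventral fates. The gene is ENSORLG00000009772, on chromosome 24 (2429184 to 2434179). It had 221, 284 and 214 normalized counts in the single mutants and 178, 186 and 323 in the double mutants, against 438, 373, 367 and 388 in WT 1 to 4. Double mutant 3 came closest to WT, and still no mutant library reached the lowest WT library. On the log2 scale it differed from WT by −0.71 in the single mutants (SE 0.24, adjusted p = 0.34 by edgeR) and −0.76 in the double mutants (SE 0.33, adjusted p = 0.40), so that *bmp2b* did not pass the test in either comparison. The 95% intervals of these fold changes reached −1.25 to −0.17 and −1.49 to −0.03. In a model without the set, where all 4 WT libraries serve both mutants, the double mutants passed the test with −0.77 (adjusted p = 0.036). That model called 13.1% of all genes tested lower in the double mutants, against 2.02% in the model with the set.

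*bmp16*, a ligand of the BMP2/4 class known from fishes, had few counts, and its result turned on which WT library it was compared with. The gene is ENSORLG00000028570, on chromosome 13 (14366043 to 14376286), the chromosome of *yap1*, from which it lies 7.85 Mb away. The raw counts were 8, 3 and 13 in the single mutants and 1, 2 and 4 in the double mutants, against 96, 87, 62 and 10 in WT 1 to 4. On the normalized scale these were 13.3, 2.64 and 10.7 in the single mutants and 1.2, 2.27 and 4.17 in the double mutants, against 77.0, 77.4, 56.2 and 11.1 in WT 1 to 4. WT 4 thus lay inside the range of the single mutants, whereas all 3 double mutants lay below all 4 WT libraries. *bmp16* fell by 3.04 on the log2 scale in the single mutants (SE 0.48, adjusted p = 0.026 by edgeR), and in the double mutants the value was −2.04 (SE 0.82, adjusted p = 0.36). Summed over libraries, 24 counts in the single mutants stood against 245 in WT 1–3, a ratio of 0.115 (95% exact interval 0.0724 to 0.175), and 7 counts in the double mutants against 10 in WT 4, a ratio of 0.235 (0.0761 to 0.685). These intervals cover counting error only. Set against WT 1–3 instead, the 7 counts of the double mutants gave a ratio of 0.0371 (0.0148 to 0.0776), and WT 4 itself gave 0.158 (0.0747 to 0.295).

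The call of *bmp16* in the single mutants was the least stable among the called values of the 5 genes. It was lost without WT 1 (adjusted p = 0.12 by edgeR), WT 2 (0.13), WT 3 (0.084), single mutant 3 (0.12) or double mutant 2 (0.051), and in the model without the set (0.19). The fold change stayed between −3.38 and −2.56 with any library left out and the set in the model, which the fit without WT 4 cannot hold. In the double mutants the model without the set gave −4.36 (adjusted p = 0.010), where 13.1% of all genes tested were called lower.

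*smad6b*, which encodes an inhibitory Smad that blocks receptor-regulated Smads, was lowered together with *bmp4* in the double mutants. The gene is ENSORLG00000006825, on chromosome 6 (16397451 to 16420108). It had 924, 1078 and 998 normalized counts in the single mutants and 756, 852 and 943 in the double mutants, against 1523, 1604, 1483 and 1723 in WT 1 to 4. No mutant library overlapped with WT, and the ranges of both mutants overlapped each other. The fall in the double mutants was called, at −1.02 on the log2 scale (SE 0.16, adjusted p = 0.010 by edgeR), 0.494 times the level of WT 4 and 0.553 times that of WT 1–3. In the single mutants it stood just outside the threshold, with −0.62 (SE 0.12, adjusted p = 0.053) and 0.651 times the level of WT 1–3. It passed there under 7 of 27 alternatives, and under 20 it did not. The passes included size factors by relative log expression (adjusted p = 0.049), DESeq2 (7.4e-05) and the model without the set (0.044), at fold changes of −0.66 to −0.62. The set was kept where a library was omitted, except in the fit without WT 4, which cannot hold it. Of these 10 fits, 2 passed. These were the fits lacking double mutant 1 (0.032) or double mutant 3 (0.039), and the adjusted p rose to 0.26 without WT 2.

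*chrd*, the antagonist, did not go down with the ligands. Chordin is secreted by the organizer and holds BMP2 and BMP4 away from their receptors. The gene is ENSORLG00000009503, on chromosome 13 (18959524 to 18976929), 12.44 Mb from *yap1*. It had 6021, 5465 and 4586 normalized counts in the single mutants and 4249, 4016 and 3512 in the double mutants, against 4329, 4564, 4574 and 3249.8 in WT 1 to 4. The single mutants all lay above the 4 WT libraries, single mutant 3 by little, and the double mutants lay above WT 4 and below WT 1–3. On the log2 scale it differed from WT by 0.25 in the single mutants (SE 0.12, adjusted p = 0.52 by edgeR) and 0.27 in the double mutants (SE 0.18, adjusted p = 0.65), with 95% intervals of −0.02 to 0.53 and −0.13 to 0.67. Neither passed the test, and in the double mutants the sign depended on WT 4, since the model without the set gave −0.09 (adjusted p = 0.67). The summed level of 3 other organizer and axial midline markers (*gsc*, *foxa2* and *shha*) ranged between 3326 and 3842 normalized counts in the single mutants and between 2365 and 2599.995 in the double mutants, against 3538 to 4027 in WT 1–3 and 2541 in WT 4, and no gene of the 3 was called in either comparison. The part of the sets in the level of *chrd* was not tested apart from the model with and without them.

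Of the 5 genes, 2 were called lower in the single mutants (*bmp4* and *bmp16*) and 2 in the double mutants (*bmp4* and *smad6b*), and none was called higher. Across all genes tested, 0.600% were called lower and 0.0908% higher in the single mutants, and 2.02% lower and 0.285% higher in the double mutants. All single mutant libraries lay below the 4 WT libraries for 3 of the 5 genes, against 6.03% of all genes, and above them for *chrd*, against 3.47%. All double mutant libraries lay below the 4 WT libraries for 4 of the 5 genes, against 15.7% of all genes, and above them for none, against 16.2%. *bmp2b*, *bmp4* and *smad6b* were below in both mutants at once, as were 3.75% of all genes. The names of *bmp4*, *bmp16* and *smad6b* came from genes that the study called in these same libraries, those of *bmp2b* and *chrd* from its marker table. The choice of genes was therefore not independent of the values compared with these shares.

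The loss of *yap1b* on top of *yap1* was examined with the difference of both fold changes, double minus single. It was −0.05 for *bmp2b* (95% interval −0.98 to 0.88), −0.09 for *bmp4* (−0.49 to 0.32), 0.998 for *bmp16* (−1.32 to 3.32), −0.40 for *smad6b* (−0.84 to 0.05) and 0.02 for *chrd* (−0.47 to 0.50). No member passed the test (adjusted p = 0.9999 for each by edgeR, unadjusted p = 0.073 for *smad6b*), and 0.0303% of all genes did. The intervals leave room for a further change in either direction for all 5 genes, and the interval was narrowest for *bmp4*. Since sets and mutant genotypes coincide, the difference rests on WT 4 as well.

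Within each mutant library, the counts of *chrd* were higher relative to those of *bmp4* than in any WT library. The ratio of *chrd* to *bmp4* counts was 3.10, 2.57 and 2.16 in the single mutants and 2.12, 1.77 and 1.50 in the double mutants, against 0.956, 1.06, 1.15 and 0.669 in WT 1 to 4. All 6 mutant libraries lay above all 4 WT libraries. The median of the single mutants was 2.57, against 1.06 in WT 1–3 of their set, or 2.43 times as high. The median of the double mutants was 1.77, against 0.669 in WT 4 of theirs, or 2.65 times as high, so that the higher ratios of the single mutants cannot be told apart from the difference between the sets. A ratio within a library does not depend on the scaling between libraries, but counts were not divided by transcript length, so that only its change between genotypes can be read. Against *bmp2b*, the ratio of *chrd* was 27.2, 19.3 and 21.4 in the single mutants and 23.9, 21.6 and 10.9 in the double mutants, against 9.88, 12.2, 12.5 and 8.37 in WT 1 to 4, with double mutant 3 inside the WT range. The ratio of *smad6b* to *bmp4* was 0.476, 0.508 and 0.471 in the single mutants and 0.377, 0.376 and 0.403 in the double mutants, against 0.336, 0.372, 0.374 and 0.355 in WT 1 to 4. The inhibitory Smad was thus higher per count of *bmp4* in every mutant library than in any WT library, by little in double mutants 1 and 2. No test was run on these ratios, which combine genes that were chosen together. They carry the lower counts of *bmp4* and *bmp2b* given above and are no separate observation. *chrd* itself was called in neither mutant.

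**Figure D2:**
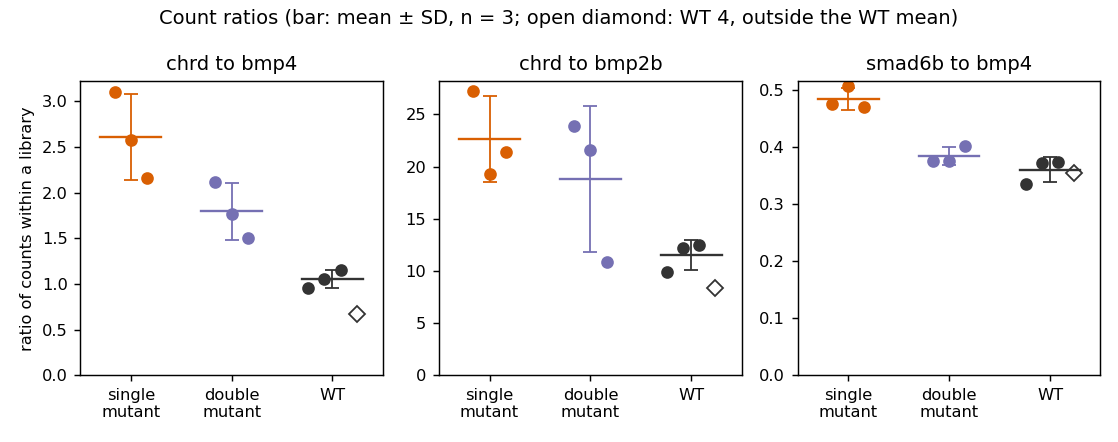
Ratios of counts within each library (vertical axis, from 0) for *chrd* to *bmp4*, *chrd* to *bmp2b* and *smad6b* to *bmp4* in *yap* single mutants, *yap* double mutants and WT. Filled points are libraries, lines and bars are the mean ± SD of 3 libraries (WT 1–3 for WT) and the open diamond is WT 4; for *chrd* to *bmp4* the single mutants lie at 2.16 to 3.10 and the double mutants at 1.50 to 2.12, above WT at 0.669 to 1.15.

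The wider pathway was read from a list of 89 genes, of which 38 could be matched to a row, since gene names came only from the study's tables. For 31 of these 38 the name came from tables that consist mostly of genes the study had called in these libraries, so that the counts below are not independent evidence of direction. In the single mutants 6 of the 38 were called lower, beside 0.600% of all genes tested, and none higher, with a median log2 fold change of −0.52, and 34 had a negative value. In the double mutants 10 were called lower, beside 2.02% of all genes, and none higher, with a median of −0.76, and 36 had a negative value. The median of all genes tested was 0.02 in the single mutants and 0.01 in the double mutants. Without the 5 members, 4 and 8 of the remaining 33 were called lower, with medians of −0.51 and −0.76. In both mutants at once, 19 of the 38 lay below all 4 WT libraries, beside 3.75% of all genes. The count in the single mutants dropped to 1 of 38 without WT 1, WT 2, WT 3 or single mutant 3 and to 3 without single mutant 2 or double mutant 2, and grew to 10 without double mutant 1. The count in the double mutants was 7 to 13 with any library but WT 4 left out, and the model without the set called 28 lower and 1 higher (*bmpr1ba*), with 13.1% of all genes called lower. DESeq2 called 15 of the 38 lower in each mutant, but it also called more of all genes tested. In the single mutants it called 316 of all genes lower, against 99 with edgeR. Its totals for both mutants, with both directions together, are given in the last section. For the double mutants no share called lower by DESeq2 is given, so that the 15 cannot be weighed there.

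Among the ligands, *bmp7a*, which forms heterodimers with Bmp2 in zebrafish, was nearest to *bmp4* in behavior. It had 1346, 926 and 996.5 normalized counts in the single mutants and 1136, 961 and 836 in the double mutants, against 1882, 1932, 1882 and 1949.7 in WT 1 to 4. All mutant libraries were below WT, with −0.80 in the single mutants (SE 0.16, adjusted p = 0.070 by edgeR) and a called −0.996 in the double mutants (SE 0.22, adjusted p = 0.049), a call that did not hold when any of WT 1 to 3, single mutant 3, double mutant 2 or double mutant 3 was left out (adjusted p up to 0.14). *gdf3*, related to Vg1, and *bmp3* had negative values in both mutants and passed the test in neither. Of the extracellular modulators, *bmper*, the vertebrate Crossveinless-2 that binds both BMP ligands and Chordin, had the lowest values, at −1.02 on the log2 scale in the single mutants (SE 0.22, adjusted p = 0.083), while the double mutants had −1.16 (SE 0.29, adjusted p = 0.081). It had 434, 713 and 559 normalized counts in the single mutants and 324, 458 and 528 in the double mutants, against 1257, 1157, 1048 and 977 in WT 1 to 4, without overlap. *fstl1b*, a follistatin-like protein, and *furina*, a convertase that cleaves ligand precursors, passed in neither comparison. *chrd* was the only matched gene of these 4 with positive values.

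None of the 5 matched receptor genes was called in either mutant. *acvrl1*, a type 1 receptor known mostly from endothelium, came nearest, with 808, 532 and 699.9 normalized counts in the single mutants and 774, 780.5 and 599.9 in the double mutants, against 1248, 1191, 1148 and 1453 in WT 1 to 4. On the log2 scale it differed from WT by −0.82 in the single mutants (SE 0.17, adjusted p = 0.073 by edgeR) and −1.02 in the double mutants (SE 0.22, adjusted p = 0.0504). *bmpr1ba*, a type 1 BMP receptor, had values of the opposite sign, with 746, 971 and 740.2 normalized counts in the single mutants and 1163, 778 and 922 in the double mutants, against 566, 541, 502 and 686 in WT 1 to 4. All mutant libraries were above WT, but neither the single mutants at 0.61 (SE 0.17, adjusted p = 0.21) nor the double mutants at 0.48 (SE 0.25, adjusted p = 0.52) passed the test. In the model without the set the double mutants were called higher for this gene, at 0.73 (adjusted p = 0.022 by edgeR). That model called 1819 of the 16513 genes tested higher in the double mutants, against 47 in the model with the set. It also called the other 4 matched receptor genes lower there, at −1.21 to −0.81 (adjusted p = 0.013 to 0.025 by edgeR). Of all genes tested, 13.1% were called lower there. The pseudoreceptor gene *bambia*, whose product lacks a kinase and blocks signaling, *bmpr1aa* and the type 2 receptor gene *bmpr2a* had negative values, and WT 4 lay at 0.631, 0.695 and 0.664 times the level of WT 1–3 for these 3 genes.

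All 3 matched inhibitory Smad genes lay below WT in every mutant library, as did 3.75% of all genes tested. *smad7* had 946, 1106 and 933 normalized counts in the single mutants and 794, 812 and 889 in the double mutants, against 1445, 1518, 1306 and 1478 in WT 1 to 4. It was called lower in the double mutants (−0.83, SE 0.16, adjusted p = 0.026 by edgeR) and not in the single mutants (−0.52, SE 0.12, adjusted p = 0.10), and the call was lost without WT 1, WT 2, WT 3, double mutant 1 or double mutant 2 (adjusted p up to 0.087). *smad6a*, the paralog of *smad6b*, had 387, 456 and 344 normalized counts in the single mutants and 290.4, 324 and 418 in the double mutants, against 661, 596, 510.4 and 623 in WT 1 to 4, and passed in neither. Among the 3, the call of *smad6b* in the double mutants was the one that held with any library but WT 4 left out. *smad9*, a receptor-regulated Smad, lay below WT in every mutant library as well without passing, at −0.53 (adjusted p = 0.22) and −0.64 (adjusted p = 0.21). Of the phosphatases that can act on Smads, *ctdsp2* was called in the single (−0.54, SE 0.09, adjusted p = 0.037) and double mutants (−0.76, SE 0.13, adjusted p = 0.015), and *ctdspla*, at 9.97 to 18.5 normalized counts in the single mutants, 17.7 to 21.6 in the double mutants and 36.3 to 108 in WT, was called in both as well, with WT 4 at 2.52 times the level of WT 1–3. For *ctdsp2*, WT 4 lay at 1.27 times the level of WT 1–3. Its double mutants stood at 0.591 times WT 4 and 0.749 times WT 1–3, and its single mutants at 0.687 times WT 1–3. In the single mutants the call of *ctdsp2* held in 4 and that of *ctdspla* in 1 of the 10 fits that left out a library. Outside the BMP branch, the TGF-beta receptor gene *tgfbr2a* was called lower in the double mutants (−1.11, SE 0.22, adjusted p = 0.033), a call that did not hold without WT 1, WT 2, WT 3, double mutant 1 or double mutant 2 (adjusted p up to 0.11).

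Of the 11 matched genes known to respond to BMP signals, 2 were called lower in the single mutants and 3 in the double mutants, where 0.600% and 2.02% of all genes were. *gata2a*, a GATA factor of the ventral ectoderm, had 4223, 4816.5 and 4167 normalized counts in the single mutants and 2772, 3119.6 and 3394 in the double mutants, against 7435, 7923, 7253 and 7233 in WT 1 to 4. It fell in the single mutants (−0.78, SE 0.11, adjusted p = 0.018 by edgeR) and in the double mutants (−1.22, SE 0.15, adjusted p = 0.0051). WT 4 lay at 0.960 times the level of WT 1–3 for this gene. *tp63*, the p53 family factor of epidermal progenitors, had 1799.9, 1793 and 1544 normalized counts in the single mutants and 1449.6, 1185 and 1208 in the double mutants, against 2845, 2966, 2757 and 2783 in WT 1 to 4. It fell in both as well (−0.74, SE 0.12, adjusted p = 0.025, and −1.12, SE 0.15, adjusted p = 0.0072). Both calls in the single mutants were lost without WT 1, WT 2, WT 3 or single mutant 3, and that of *tp63* also without single mutant 2, with adjusted p up to 0.12 for *gata2a* and 0.15 for *tp63*, and both held in the double mutants with any library but WT 4 left out. *dlx3b*, a homeobox gene of the ectoderm border, fell in the double mutants (−0.87, SE 0.13, adjusted p = 0.010) and in the single mutants missed the threshold (−0.53, SE 0.10, adjusted p = 0.057). Its mean was 2740 normalized counts in the single mutants and 2798 in the double mutants, against 3943 in WT 1–3 and 5123 in WT 4. The double mutants stood at 0.546 times WT 4 and 0.710 times WT 1–3, and the single mutants at 0.695 times WT 1–3. The larger fall of *dlx3b* in the double mutants thus rested on the level of WT 4. The remaining 8 matched targets, among them the ventral homeobox repressor *ved* and *id2a*, passed in neither comparison. For *ved*, WT 4 lay at 0.592 times WT 1–3, and the double mutants stood at 0.575 times WT 4 and 0.340 times WT 1–3. For *id2a* they stood at 0.624 times WT 4 and 1.12 times WT 1–3. The model without the set called 7 of the 11 targets lower in the double mutants, where 13.1% of all genes tested were.

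**Figure D3:**
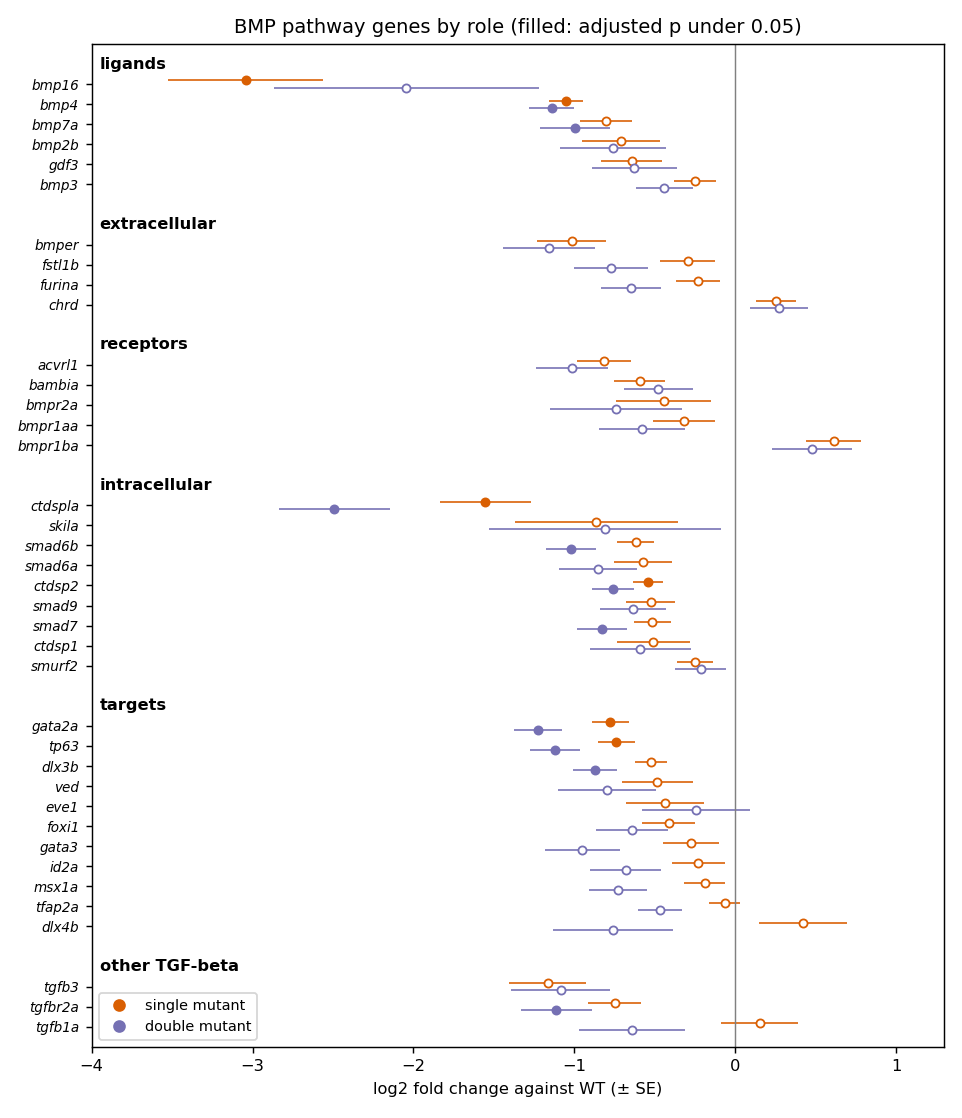
Log2 fold changes against WT (horizontal axis, ± SE) of the 38 matched genes of the BMP pathway list in *yap* single mutants and *yap* double mutants, grouped by role. Filled points have an adjusted p under 0.05; 6 genes in the single mutants and 10 in the double mutants are filled, all on the negative side, and *chrd* and *bmpr1ba* are the only genes with positive values in both mutants.

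The 5 markers used for the non-neural ectoderm, the tissue in which BMP activity is high, are all among these targets. The summed level of its 5 markers (*dlx3b*, *gata2a*, *foxi1*, *tfap2a* and *tp63*) ranged between 15025 and 16382 normalized counts in the single mutants and between 13397 and 14577 in the double mutants, against 21564 to 22635 in WT 1–3 and 24581 in WT 4. Of the 5, 2 were called lower in the single mutants (0.600% of all genes) and 3 in the double mutants (2.02%), and all 5 had negative values in both. These are the same calls of *gata2a*, *tp63* and *dlx3b* as among the targets, and no second observation. The 2 neural plate markers (*sox3* and *otx2b*) summed to between 7984 and 9402 in the single mutants and between 8694 and 10511 in the double mutants, against 6795 to 7599 in WT 1–3 and 8004 in WT 4. In the double mutants *sox3*, the larger part, stood at 1.46 times WT 1–3 and 1.18 times WT 4. *otx2b* stood there at 0.684 times WT 1–3 and 1.14 times WT 4. The 7 mesoderm markers summed to between 22056 and 28835 in the single mutants and between 21629 and 31963 in the double mutants, against 18814 to 20344 in WT 1–3 and 21215 in WT 4. The largest part was *cdx4*, with a mean of 12465 in the double mutants, and 2 of the 7 had negative fold changes in each mutant. The double mutants stood at 0.519 times WT 1–3 and 0.949 times WT 4 for *tbxta*. For *pcdh8* they stood at 0.284 and 1.36 times. The 2 endoderm markers summed to between 4856 and 5164 in the single mutants and between 4507 and 4792 in the double mutants, against 4731 to 4916 in WT 1–3 and 4118 in WT 4. No marker of the neural plate, mesoderm or endoderm was called in either comparison. Of all genes, 0.600% were called lower and 0.0908% higher in the single mutants, and 2.02% and 0.285% in the double mutants. So few markers cannot show that these tissues were unchanged. Without the set, 2 mesoderm markers were called lower and 2 higher in the double mutants, and 1 neural plate marker higher. That model called 13.1% of all genes tested lower and 1819 of 16513 higher there. Every mutant library thus held less *bmp4* and *smad6b* than any WT library, and a lower sum of non-neural ectoderm markers. The mean of *bmp4* was 2061 normalized counts for single mutants and 2205 for double mutants, whose sums were lower. WT 4 lay at 1.14 times the level of WT 1–3 for *bmp4*. Against the WT of their own set, the single mutants stood at 0.483 times and the double mutants at 0.454 times. For *smad6b* the means were 1000 and 850, at 0.651 and 0.494 times the WT of their set. Since sets and mutant genotypes coincide, these levels cannot show whether either gene followed the sum between the mutants. The part of tissue proportions in these differences was not tested.

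For each member, the named genes with the most similar profile were sought by the root mean square distance of log2 CPM, each centered on its mean over the 10 libraries, among 1998 tested genes with a symbol (clone names left out). The distance is a description of these libraries, which share sets and genotypes. Symbols came from the study's tables, which consist mostly of genes it had called in these libraries. The candidates were therefore not independent of the genotypes, and most of the 16513 genes tested could not appear. The gene nearest to *smad6b* was *smad7* (0.0886, against a median of 0.489 over all candidates), followed by *trim45* (0.109) and the stress-responsive factor *atf3* (0.113). The gene nearest to *bmp2b* was *smad6a* (0.128), followed by *anks1b* (0.156) and *pawr* (0.159), with a median over candidates of 0.531. Among these candidates, inhibitory Smads thus stood nearest to 2 of the 5 members. For *bmp4* the nearest were the matrix protease gene *ADAMTS5* (0.126), *amotl2a*, which encodes a junction protein that binds Yap (0.150), and *kbtbd11* (0.153), with a median of 0.547. *bmp16* was nearest to *col11a1a* (0.698), against a median of 1.58, and its own root mean square deviation over the libraries was 1.68. *chrd* was nearest to *lmo4a* (0.140), *ccng1* (0.154) and *SLC29A4* (0.165), against a median of 0.575, and its own deviation was 0.251. Distances of members that vary this differently cannot be ranked against each other. None of these 3 neighbors of *chrd* was called in either mutant.

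How far each member depended on the handling of the libraries is shown by its fold change under every alternative tried. *bmp4* kept its call in the single mutants under all 27 alternatives, between −1.15 and −1.01, and in the double mutants under 25 of 26, between −1.17 and −0.95, with the exception of the fit of the double mutants and WT 4 alone (adjusted p = 0.069). *smad6b* in the double mutants kept its call under 25 of 26, with the same exception (adjusted p = 0.12). *chrd* passed the test against WT under none.

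**Figure D4:**
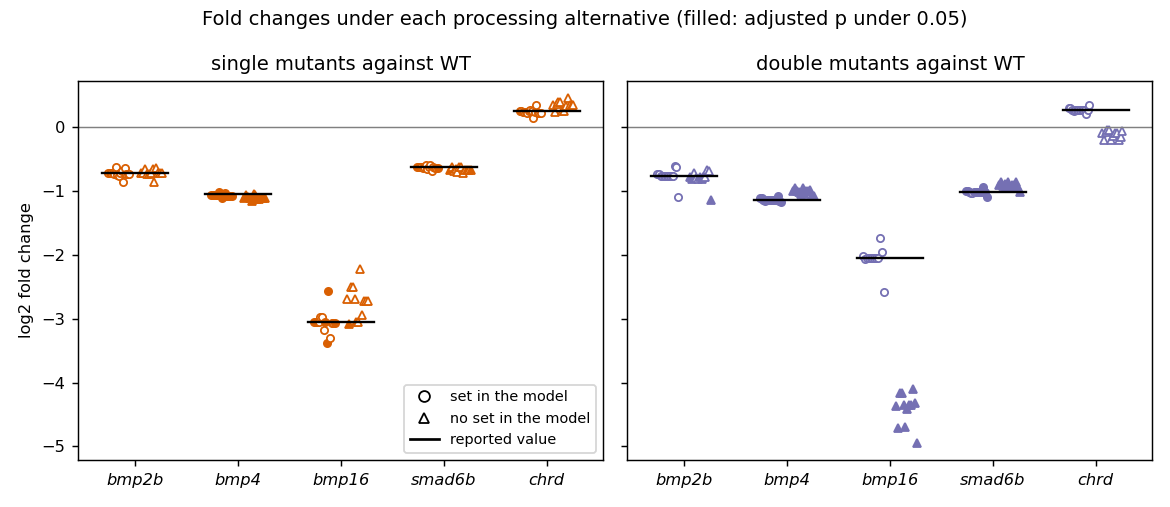
Log2 fold changes of the 5 BMP genes (vertical axis) against WT under each processing alternative, for the *yap* single mutants (left) and the *yap* double mutants (right). Circles are fits with the set in the model or within 1 set, and triangles are fits without it. The fit without WT 4, which cannot hold the set, is drawn for the single mutants as both. Filled symbols have an adjusted p under 0.05 and black lines are the reported values. *bmp4* stays filled near −1 with 1 exception. *bmp16* in the double mutants moves from near −2 with the set to below −4 without it, and *chrd* crosses 0.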

How the data were processed

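RNA-seq libraries of stage 16 medaka embryos (3 *yap* single mutant, 3 *yap* double mutant and 4 WT) were analysed from the deposited counts. The authors trimmed reads with Trimmomatic, removed ribosomal reads with sortmerna, mapped with HISAT2 to ASM223467v1, kept high mapping qualities and counted reads per gene with HTSeq on Ensembl annotation, and the deposited values are whole-number counts without normalization. Whether counting used strand is not given in the sources used here. Reads in no gene (10.6% to 11.3%) and ambiguous reads (7.94% to 9.86%) were left out. For genes averaging 10 counts or more per library, edgeR 4.0.16 in R 4.3.3 fitted genotype and set to TMM-scaled counts, and its quasi-likelihood tests were judged at an adjusted p of 0.05 (Benjamini-Hochberg over all genes tested). Intervals use the test's degrees of freedom, log2 CPM (counts scaled to library size) a prior count of 2, and the summed *bmp16* counts an exact binomial interval of 95%. DESeq2 1.42.0, other filters and size factors, models without the set or with the replicate number and fits without each library served as alternatives. The test was checked on simulated counts that held no difference between the sets. That check therefore does not cover the sets or the lone WT 4. Members, pathway list and markers were chosen with earlier results of these data known. The genes named are the members, *yap1* and *yap1b*, the matched pathway genes, the germ layer markers and the 3 genes nearest to each member. Coordinates are those of RefSeq on the same build. Motifs in promoters were not analysed here.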

Additional observations from a re-analysis of the deposited data

How the results depend on the processing

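Among the members, the fold changes of *bmp16* and *chrd* moved most in the fit without the set, where all WT libraries served both mutants. Without it, *bmp16* had −2.70 in the single mutants (adjusted p = 0.19) and −4.36 in the double mutants (0.010), *smad6b* −0.66 in the single mutants (0.044), *bmp2b* −0.77 (0.036) and *chrd* −0.091 (0.67) in the double mutants, and the double minus single difference was 0.10 for *bmp4*, −1.66 for *bmp16* and −0.45 for *chrd*, with 3982 genes called in the double mutants and 317 for the difference. Within each set alone, *bmp16* in the single mutants (−3.06, adjusted p = 0.052) and *bmp4* (−1.14, 0.069) and *smad6b* (−1.02, 0.12) in the double mutants lost their calls, and 90 genes were called in the double mutants. DESeq2 called 440 genes in the single mutants, 730 in the double mutants and 141 for the difference, against 114, 381 and 5 with edgeR, and *smad6b* at −0.62 in the single mutants, as did size factors by relative log expression (−0.62). With the replicate number as a block in place of the set and without WT 4, the double mutants had −0.80 for *bmp2b*, −4.71 for *bmp16* and −0.20 for *chrd*, the differences were 0.10 for *bmp4*, −1.62 for *bmp16* and −0.45 for *chrd* (adjusted p = 0.029), and 7490 genes were called in the double mutants and 4391 for the difference. Deviations from the group means correlated across genes with an r of −0.0619 to 0.490 between same-numbered libraries and −0.414 to 0.355 between the others. These ranges overlap and do not settle whether the numbers pair the libraries. The reported fits do not use the numbers, and the model with the replicate block does not hold the sets.

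With any library left out, with or without the set, the single mutants had −3.38 to −2.23 for *bmp16* and −0.72 to −0.58 for *smad6b*, with 14 to 172 genes called, and the double mutants −1.14 to −0.61 for *bmp2b*, −4.94 to −1.74 for *bmp16* and −0.20 to 0.36 for *chrd*, with 213 to 7182 genes called. The difference was −0.42 to 0.13 for *bmp2b*, −0.13 to 0.13 for *bmp4*, −2.23 to 1.34 for *bmp16* and −0.55 to 0.14 for *chrd*, with 0 to 4081 genes called. Without WT 4 the model with the set gives no value for the double mutants. For the single mutants that fit holds no set, and it repeats the fit without the set and WT 4 among the alternatives. The cause of these changes was not tested. With a mean count of at least 50, *bmp16* was not tested. The median ratio of *chrd* to *bmp4* stayed at 2.37 to 2.84 in the single mutants, 1.64 to 1.94 in the double mutants and 0.956 to 1.06 in WT with any library left out. At 1 to 13 counts per mutant library, depth limits what can be said of *bmp16*.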
